A study of Mus musculus with 8 samples.

Results

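The genes described are 38 mouse genes of 11 subfamilies that encode neuronal adhesion molecules with extracellular leucine-rich repeats. They were taken as a list of names, with no threshold on a measured value, and all 38 were found among the 23830 genes of the expression table. RNA was sequenced from cortical neurons cultured from mouse embryos of day 16.5, in 4 groups of 2 biological replicates named Control, Control_KCl, Rem2 KO and Rem2 KO_KCl. The genotype field reads Rem2 flx/flx in all 8 libraries, so floxed Rem2 alleles are common to every group. The groups come from the library titles, and how Cre was delivered and which exons it removes are not stated. Cultures grew for 6 days, and 1 µM tetrodotoxin (TTX, a sodium channel blocker that stops action potentials) was present overnight from day 5 in vitro. The KCl groups were then depolarised with 55 mM KCl for 4 h.

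Leucine-rich repeats are short tandem motifs that stack into a curved surface for binding other proteins. In the neurons of the cortex, LRRTM, NGL, SALM and SLITRK proteins sit mainly in the postsynaptic membrane and bind presynaptic receptors such as neurexins and receptor protein tyrosine phosphatases, and members of these families induce synapses in co-culture assays. FLRT, LINGO, Nogo receptor, LRRN, LRIG and AMIGO proteins are better known from axon guidance, myelination, growth factor signalling and ion channel assembly. Rem2 is a small GTPase of the RGK family that inhibits voltage-gated calcium channels and whose own transcription rises with depolarisation.

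The values are FPKM, fragment numbers scaled by transcript length and by library size, which can be set side by side between genes. FPKM sums were 435544 to 474624 per library and 11949 to 12717 genes reached 1 FPKM. A rough depth read from the smallest steps between low values was 18.6 to 20.5 M fragments for replicate 1 of the 4 groups and 34.8 to 42.1 M for replicate 2, so depth cannot be told apart from replicate number. The 6 neuron markers were all present, with a summed FPKM of 1387 to 1921. The cultures also held markers of astrocytes or radial glia (1373 to 1947 summed over 7 genes) and of the oligodendrocyte lineage (301 to 482 over 8 genes), and little of microglia (7.34 to 27.1 over 7 genes). These are bulk samples, in which fewer cells of a type and less RNA per cell cannot be told apart. Rem2 stood at 6.29 and 2.54 FPKM in Control and at 2.13 and 1.70 in Rem2 KO, and at 22.5 and 21.4 in Control_KCl and 11.7 and 12.4 in Rem2 KO_KCl. It was lower in the Rem2 KO library of every same-numbered pair, but the difference averaged over KCl states did not pass (log2 fold change -0.81 ± 0.23 SE, limma adjusted p = 1, or 0.167 with the replicate number in the model).

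Of the 38 genes, 36 reached 1 FPKM in at least 2 libraries and were tested, and each of the 36 reached it in all 8. Slitrk6 reached 1 FPKM in 1 library and averaged 0.791, and Lrig3 averaged 0.760, so neither was tested. The highest mean was that of Lrrc4b at 102 FPKM and the lowest among the tested genes that of Amigo3 at 1.62. The median over the 36 means was 13.9 FPKM, beside 12.2 for all 13089 genes tested, and 20 of the 36 lay above the median of those genes. There were 12 genes at 20 FPKM or more: Lrrc4, Lrrc4b and Lrrc4c, Lrrn1, Lrrn2 and Lrrn3, Lrfn1, Lrfn4 and Lrfn5, and Lrrtm1, Lingo1 and Rtn4rl2. The NGL genes had the highest summed level (136 to 171 FPKM per library) and the AMIGO genes the lowest (11.1 to 13.8).

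**Figure D1:**
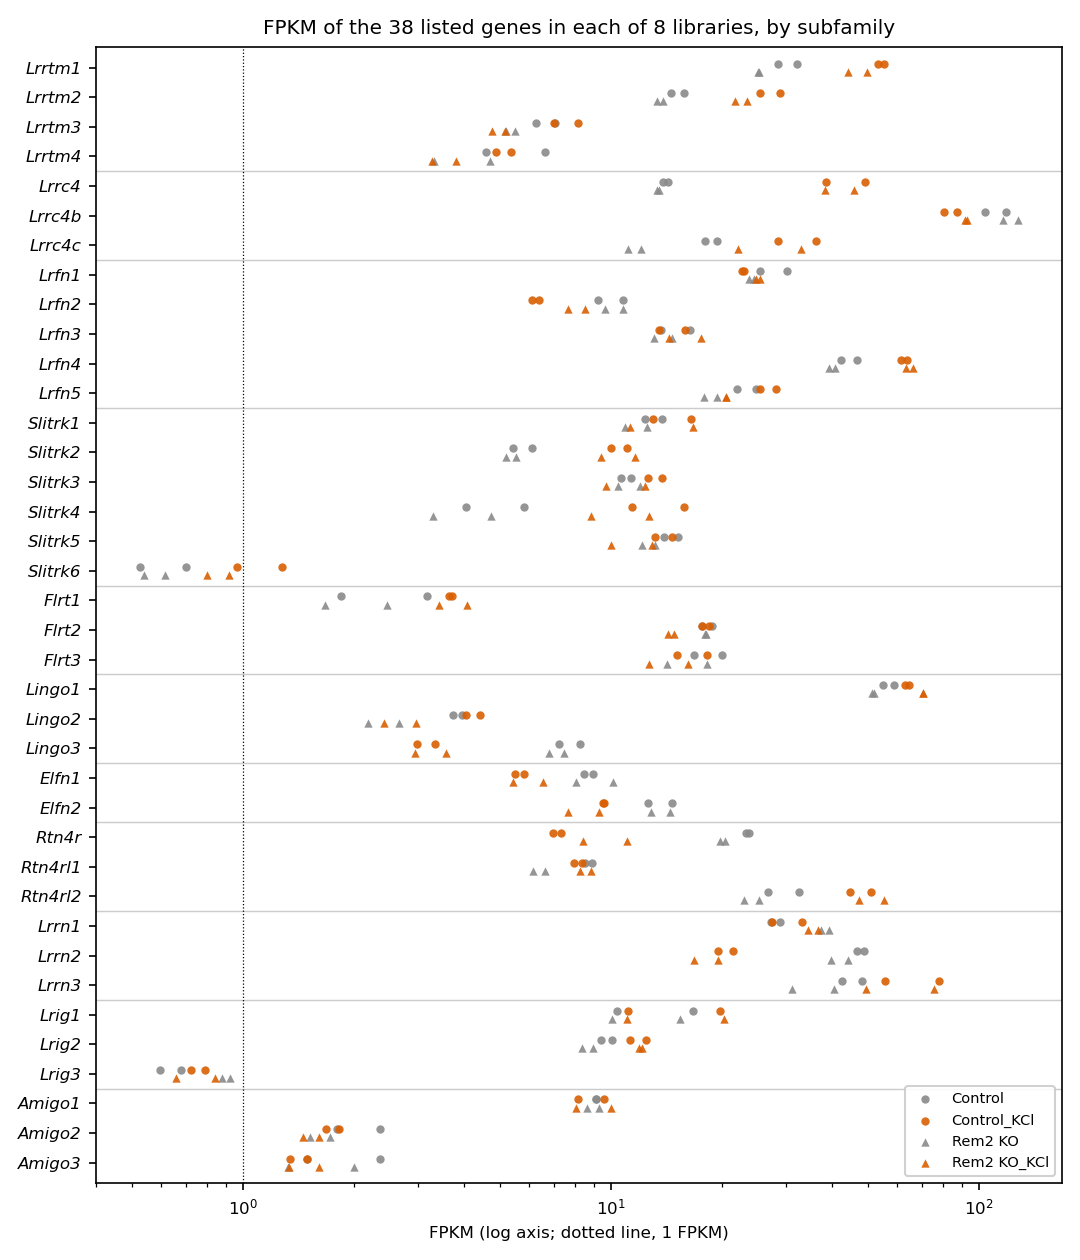
FPKM of each of the 38 genes (rows, grouped by subfamily) in each of the 8 libraries, on a log axis; circles are Control, triangles Rem2 KO, grey without and orange with KCl, and the dotted line is 1 FPKM. The 36 tested genes lie right of the line in every library, from Amigo3 with a mean of 1.62 to Lrrc4b with a mean of 102.

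The positions of the genes were read from the GENCODE M21 annotation of GRCm38, the assembly that mm10 names. A single coding exon was annotated for 22 of the 38 genes, among them all 6 Slitrk and all 3 Flrt genes. In 10 cases the gene lay wholly within another protein-coding gene on the opposite strand. These were Lrrtm1 (in Ctnna2), Lrrtm2 (Ctnna1), Lrrtm3 (Ctnna3), Lrrc4 (Snd1), Lrfn1 (Samd4b), Lrfn4 (Pcx), Flrt1 (Macrod1), Flrt3 (Macrod2), Lrrn3 (Immp2l) and Amigo3 (Rnf123), and Lrig1 and Amigo2 overlapped a neighbour otherwise. Whether the counting used strand is not given in the sources used here, so in overlapping exons the reads of the pairs cannot be told apart, and values of hosts are given beside the genes they hold where a call is described.

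Promoter sequences are shown for 3 genes on which the results below turn: Lrrc4, which rose, Rtn4r, which fell, and Slitrk2, which has a pair of annotated starts. They are windows of 300 bases around the start annotated by RefSeq, read 5′ to 3′ on the strand of the gene, and come from RefSeq on GRCm38.p6. Capitals mark a cAMP response element (CRE, TGACGTCA, the CREB site) or its core (TGACG, or CGTCA on the other strand). The windows are chr6:28831698-28831997 on the minus strand for Lrrc4, chrX:66649068-66649367 and chrX:66652909-66653208 on the plus strand for Slitrk2, and chr16:18127392-18127691 on the plus strand for Rtn4r.
Lrrc4: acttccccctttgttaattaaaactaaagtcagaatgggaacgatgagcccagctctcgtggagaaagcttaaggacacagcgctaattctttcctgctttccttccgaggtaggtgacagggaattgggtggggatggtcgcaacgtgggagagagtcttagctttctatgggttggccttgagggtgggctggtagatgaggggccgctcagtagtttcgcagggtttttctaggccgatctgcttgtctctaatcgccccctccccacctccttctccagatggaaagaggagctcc
Slitrk2 upstream start: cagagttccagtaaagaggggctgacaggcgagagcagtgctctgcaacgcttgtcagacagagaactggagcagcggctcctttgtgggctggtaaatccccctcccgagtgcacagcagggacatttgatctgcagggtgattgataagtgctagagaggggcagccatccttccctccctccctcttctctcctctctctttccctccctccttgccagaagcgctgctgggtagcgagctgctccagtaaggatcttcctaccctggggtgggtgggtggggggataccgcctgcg
Slitrk2 downstream start: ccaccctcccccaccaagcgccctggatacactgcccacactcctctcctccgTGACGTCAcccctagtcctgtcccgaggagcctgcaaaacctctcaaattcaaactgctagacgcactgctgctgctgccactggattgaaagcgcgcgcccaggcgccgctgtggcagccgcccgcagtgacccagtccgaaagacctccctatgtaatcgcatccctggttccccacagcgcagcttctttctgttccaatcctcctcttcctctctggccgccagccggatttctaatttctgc
Rtn4r: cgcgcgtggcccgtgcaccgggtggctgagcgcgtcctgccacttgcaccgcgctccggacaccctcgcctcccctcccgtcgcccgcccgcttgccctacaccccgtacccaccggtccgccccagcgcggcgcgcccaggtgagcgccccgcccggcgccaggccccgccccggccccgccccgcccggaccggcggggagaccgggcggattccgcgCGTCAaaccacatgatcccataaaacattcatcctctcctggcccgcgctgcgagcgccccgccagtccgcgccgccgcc

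Promoter entries matched 31 of the 38 genes, with 36 windows. The full CRE stood in 1 of the 36 windows, that of the downstream Slitrk2 start, and in 3.11% of the 13252 windows of all tested genes. Its core stood in 5 of 36 (Flrt2, Lrfn4, Lrfn5, Rtn4r and Slitrk2), beside 30.8% of the windows of all tested genes, and each full CRE holds a core on both strands. The AP-1 site TGANTCA stood in 2 windows (Lrrc4c and Slitrk6), beside 4.66%. No window held a CArG box or a MEF2 site, found in 1.35% and 1.52% of the windows of all tested genes. Both strands were searched, and a match is a description of these letters only. The median GC content was 62.2% in the 36 windows and 61.0% over all tested genes.

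Depolarisation was compared with no KCl within each genotype, on log2(FPKM + 1), a scale that understates the change of low genes. In Control neurons, 11 of the 36 genes passed the threshold (limma adjusted p under 0.05), beside 17.4% of all genes tested. Of these, 7 rose (Lrrc4, Slitrk4, Lrrtm1, Lrrtm2, Slitrk2, Rtn4rl2 and Lrfn4), beside 5.18% of all genes, and 4 fell (Rtn4r, Lrrn2, Lingo3 and Lrfn2), beside 12.2%. In Rem2 KO neurons 14 passed, beside 16.0% of all genes. The 10 that rose were the same 7 with Lrrc4c, Lingo1 and Lrig2, beside 5.73% of all genes, and the 4 that fell were Rtn4r, Lrrn2, Lingo3 and Elfn2, beside 10.3%. Both genotypes thus shared 7 genes that rose and 3 that fell, and no gene was called in opposite directions. The median change of the 36 genes was 0.11 in Control and 0.09 in Rem2 KO, beside -0.14 and -0.12 for all genes. TMM-type scaling moved the medians of all genes to 0.01 and -0.003, and then 11 rose and 3 fell in Control, beside 1277 and 1352 of all genes, and 12 rose and 5 fell in Rem2 KO, beside 1232 and 1370.

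The replicate numbers pair the libraries (see the correlations given with the processing), and with the replicate number in the model the counts grew. In Control 11 genes rose and 8 fell, beside 14.4% and 34.3% of all genes (48.6% in either direction). In Rem2 KO 13 rose and 8 fell, beside 16.1% and 31.4% (47.5% in either direction). The genes called in both genotypes were then 11 that rose, with Lrrc4c, Lrrn3, Flrt1 and Lrig2 added, and 7 that fell, with Lrrc4b, Lrfn2, Elfn1 and Elfn2 added. In 12 of the 36 genes all 4 KCl libraries lay above all 4 without KCl, beside 12.8% of all genes, and in 7 all lay below, beside 27.9%. Leaving out 1 library of the arm compared reduced the calls without the block to between 2 and 4 in Control and between 3 and 7 in Rem2 KO. Lrrc4 and Rtn4r passed in each of those 4 fits in Control, and Lrrc4, Lrrtm1 and Lrrn2 in each of the 4 in Rem2 KO.

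**Figure D2:**
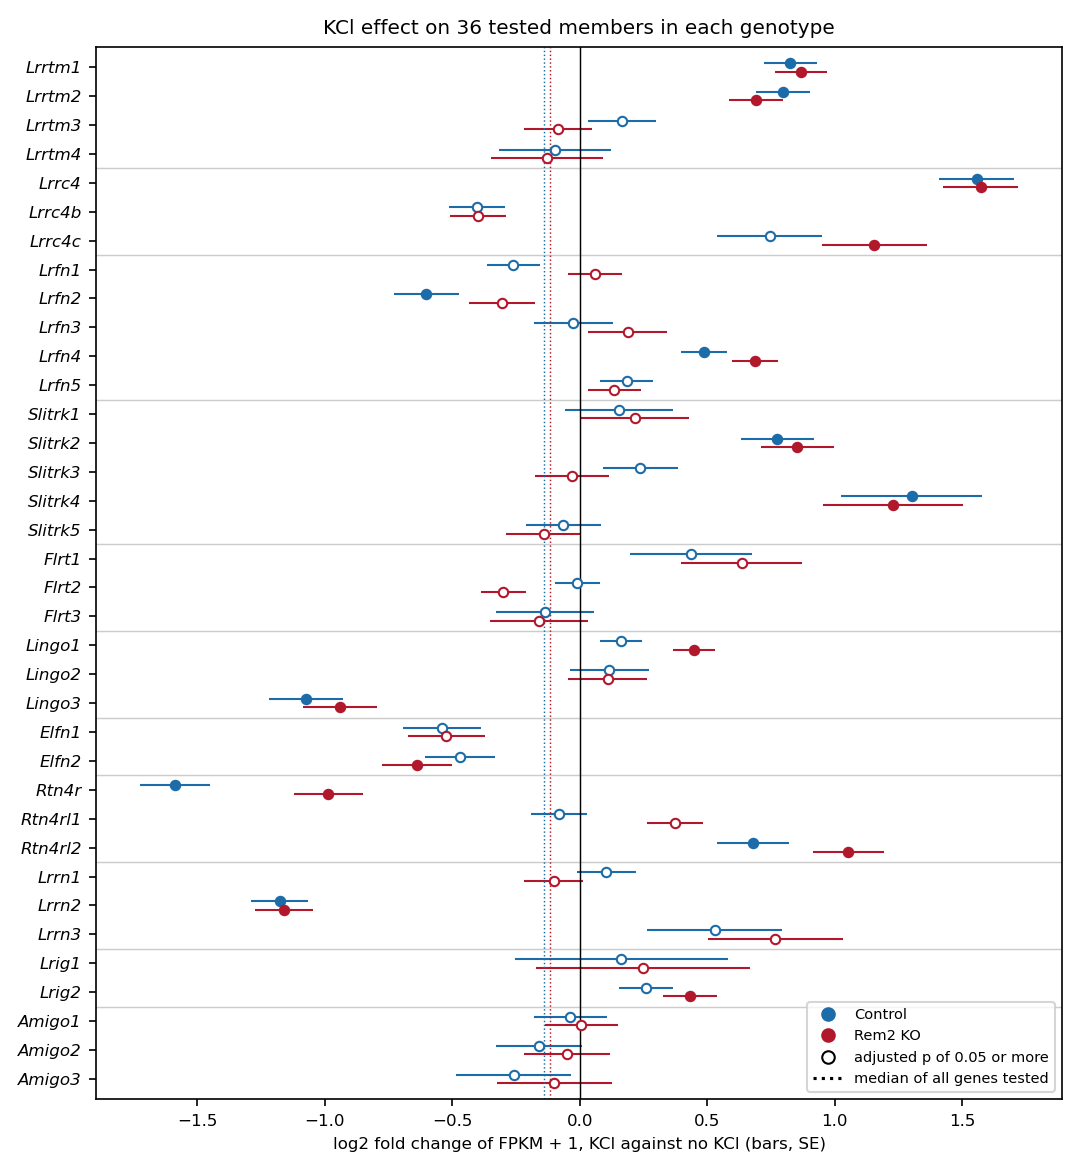
Log2 fold change of FPKM + 1 with KCl against no KCl for the 36 tested genes (rows), in Control (blue) and Rem2 KO (red); bars are standard errors, filled points have a limma adjusted p under 0.05, and dotted lines mark the medians of all genes (-0.14 and -0.12). Lrrc4 lies farthest right (1.56 and 1.57) and Rtn4r farthest left in Control (-1.59).

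Among the genes of postsynaptic organisers, Lrrtm1 and Lrrtm2, which bind neurexins at excitatory synapses, rose in both genotypes. Lrrtm1 was at 32.0 and 28.5 FPKM in Control, 53.2 and 55.4 in Control_KCl, 25.3 and 25.1 in Rem2 KO and 44.1 and 49.7 in Rem2 KO_KCl. Lrrtm2 was at 14.6 and 15.8, 25.5 and 28.8, 13.4 and 13.9, and 21.8 and 23.4 FPKM in the same order of groups. For both genes every KCl library was above every library without KCl. The log2 fold changes of Lrrtm1 were 0.83 ± 0.10 SE (adjusted p = 0.0075) and 0.87 ± 0.10 (0.00724), and those of Lrrtm2 were 0.80 ± 0.11 (0.00849) and 0.69 ± 0.11 (0.0126). Lrrtm3 and Lrrtm4, whose proteins also bind heparan sulfate proteoglycans, did not pass in either genotype, with log2 values between -0.13 and 0.17 and KCl libraries overlapping those without. The summed LRRTM level was 47.7 to 60.2 FPKM without KCl and 73.8 to 96.1 with it. The hosts Ctnna2 and Ctnna1 did not pass (log2 values of 0.14 to 0.23). Both hosts were nevertheless higher with KCl in each same-numbered pair, the direction of Lrrtm1 and Lrrtm2. In Control and then Control_KCl, Ctnna2 was at 59.5 and 69.5 and then 67.3 and 85.0 FPKM. Ctnna1 was at 25.0 and 39.4 and then 27.8 and 48.3 FPKM. Whether reads of the hosts enter the values of the genes within them was not tested.

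Of the netrin-G ligand (NGL) genes, Lrrc4 rose, Lrrc4c rose in Rem2 KO, and the most abundant, Lrrc4b, was lower with KCl. Lrrc4 was at 13.8 and 14.3 FPKM in Control, 38.4 and 48.9 in Control_KCl, 13.5 and 13.4 in Rem2 KO and 38.3 and 45.9 in Rem2 KO_KCl. The 4 libraries without KCl lay within 13.4 to 14.3 FPKM, and the group means rose 3.10-fold and 3.13-fold. Its log2 fold change was 1.56 ± 0.15 SE in Control (adjusted p = 0.0049) and 1.57 ± 0.15 in Rem2 KO (0.00495). Snd1, the gene in which it lies, was at 40.6 and 43.5 FPKM in Control and 30.8 and 30.8 in Control_KCl, lower where Lrrc4 was higher (log2 value -0.44 ± 0.13, 0.075, or 0.00775 with the block).

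Lrrc4c, the partner of netrin-G1, was at 19.5 and 18.0 FPKM in Control, 28.5 and 36.1 in Control_KCl, 11.2 and 12.1 in Rem2 KO and 22.2 and 33.0 in Rem2 KO_KCl. Its log2 fold change was 0.75 ± 0.21 SE in Control (adjusted p = 0.0587, but 0.00717 with the block, 0.0264 with quantile normalization and 0.0138 with TMM-type scaling) and 1.16 ± 0.21 in Rem2 KO (0.0182). Lrrc4b, which binds phosphatases of the LAR family, was at 119 and 104 FPKM in Control, 87.3 and 80.4 in Control_KCl, 116 and 128 in Rem2 KO and 92.7 and 91.9 in Rem2 KO_KCl. The KCl libraries were all lower, and its log2 values of -0.40 and -0.40 passed with the block (adjusted p = 0.0109 and 0.0119) and not without it (0.056 and 0.0619), except with quantile normalization (0.026 and 0.0222). Lrrc4 thereby made up 8.73% to 10.5% of the summed NGL FPKM without KCl and 24.9% to 29.6% with it, and Lrrc4b 76.3% to 83.4% and then 48.6% to 60.5%.

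**Figure D3:**
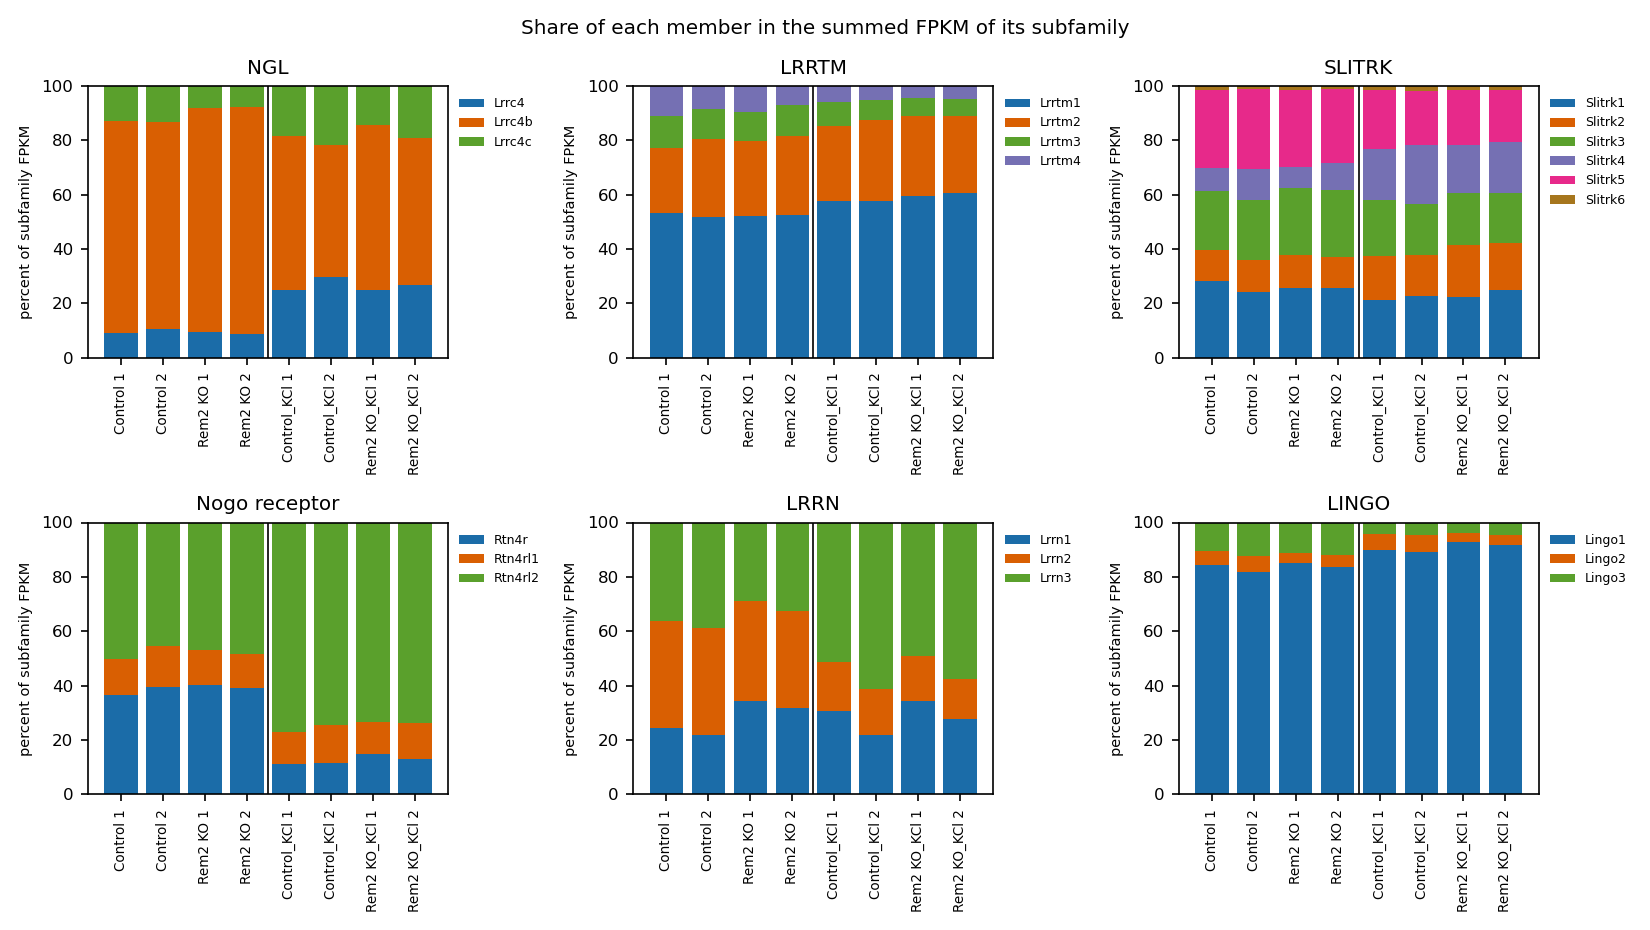
Share of each gene (percent, stacked bars) in the summed FPKM of its subfamily for 6 subfamilies, one bar per library, with the 4 libraries without KCl left of each vertical line and the 4 with KCl right of it. Lrrc4 goes from at most 10.5% to at least 24.9% of NGL, and Rtn4r from at least 36.7% to at most 14.7% of the Nogo receptor genes.

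The SALM genes (Lrfn1 to Lrfn5, synaptic adhesion-like molecules) split in direction. Lrfn4, the most abundant of them, was at 46.7 and 42.2 FPKM in Control, 63.8 and 61.5 in Control_KCl, 40.7 and 39.1 in Rem2 KO and 66.1 and 63.5 in Rem2 KO_KCl. It rose by 0.49 ± 0.09 SE on the log2 scale in Control (adjusted p = 0.0188) and by 0.69 ± 0.09 in Rem2 KO (0.00892), and Pcx, its host, did not pass (-0.34 and -0.20, adjusted p = 0.761 and 0.886, or 0.0381 and 0.18 with the block). Lrfn2, which interacts with NMDA receptors, was at 9.25 and 10.8, 6.10 and 6.38, 9.64 and 10.8, and 8.51 and 7.66 FPKM in the same groups. All its KCl libraries were lower, and its log2 value was -0.60 ± 0.13 in Control (0.029) and -0.31 ± 0.13 in Rem2 KO (0.171, 0.0467 with the block). The Control call of Lrfn2 did not pass with quantile normalization (0.109) or TMM-type scaling (0.0586).

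Lrfn1, which lies within Samd4b, was at 30.1 and 25.4 FPKM in Control, 23.0 and 22.7 in Control_KCl, 24.4 and 23.7 in Rem2 KO and 24.9 and 25.4 in Rem2 KO_KCl. It was lower with KCl in Control with the block (log2 value -0.26 ± 0.08, adjusted p = 0.039) and not without it (0.147), while Samd4b rose (1.14 ± 0.10, 0.0043). A second Lrfn1 transcript was listed at 0 in 6 libraries and at 3.78 and 3.77 FPKM in Rem2 KO_KCl, so the sum there rests in part on how reads were divided between transcripts. Lrfn3 and Lrfn5, which did not pass in either genotype, had log2 values between -0.03 and 0.19. Lrfn5 passed as higher in Control with TMM-type scaling (0.0447).

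Of the SLITRK genes, whose proteins bind receptor phosphatases across the synapse, Slitrk2 and Slitrk4 rose in both genotypes. Slitrk4 was at 4.03 and 5.81 FPKM in Control, 11.4 and 15.8 in Control_KCl, 3.28 and 4.73 in Rem2 KO and 8.84 and 12.7 in Rem2 KO_KCl. The group means rose 2.76-fold and 2.69-fold, with log2 fold changes of 1.30 ± 0.28 SE (adjusted p = 0.0281) and 1.23 ± 0.28 (0.0348). In each pair of groups the library numbered 2 was the higher, and with the block the standard errors were 0.08. Slitrk4 went from 7.70% to 11.3% of the SLITRK sum without KCl to 17.7% to 21.6% with it. Its Rem2 KO call did not pass without the filter on low values (0.0571).

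Slitrk2 was at 5.40 and 6.10 FPKM in Control, 10.0 and 11.1 in Control_KCl, 5.18 and 5.52 in Rem2 KO and 9.41 and 11.6 in Rem2 KO_KCl. All KCl libraries were higher, with log2 fold changes of 0.78 ± 0.14 SE (adjusted p = 0.0189) and 0.85 ± 0.14 (0.0156). The authors' values were given for 2 Slitrk2 transcripts, which share their coding exon and differ in their annotated start and end. The transcript whose start lies in the downstream window, the one with the CRE printed above, was at 1.80 to 3.07 FPKM without KCl and 5.84 to 7.26 with it, without overlap. The transcript of the upstream start was at 2.33 to 4.30 FPKM without KCl and 2.15 to 5.25 with it, and these ranges overlapped. By replicate number, the upstream transcript was higher with KCl in both Control pairs (2.33 and then 3.81, 4.30 and then 5.25). In Rem2 KO it was lower in replicate 1 (3.21 and then 2.15) and higher in replicate 2 (2.60 and then 4.38). The transcripts share most of their sequence, and the split of reads between them is the authors' estimate, so these values carry no test.

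**Figure D4:**
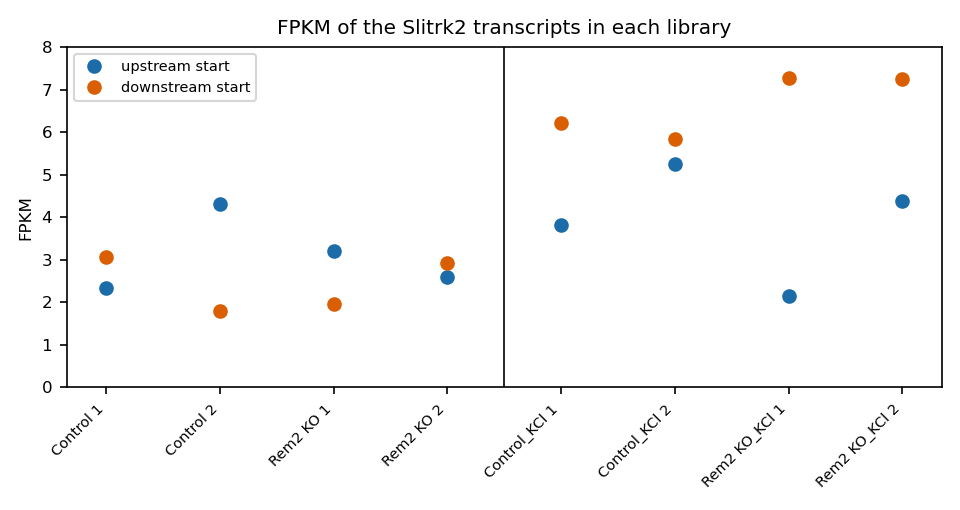
FPKM (vertical axis) of the 2 Slitrk2 transcripts in each of the 8 libraries, with the libraries without KCl left of the vertical line. The downstream-start transcript (orange) lies at 1.80 to 3.07 left of the line and 5.84 to 7.26 right of it, and the upstream-start transcript (blue) overlaps between the sides.

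The other Slitrk genes did not pass on the deposited scale. Slitrk1, the most abundant on average, was at 13.8 and 12.4 FPKM in Control, 13.0 and 16.5 in Control_KCl, 10.9 and 12.5 in Rem2 KO and 11.3 and 16.8 in Rem2 KO_KCl, and its groups overlapped. Slitrk3, known from inhibitory synapses, and Slitrk5 had log2 values between -0.14 and 0.24. Slitrk3 passed as higher in Control with quantile normalization (adjusted p = 0.0284) and TMM-type scaling (0.0272). Slitrk6 was listed at 0.526 to 0.700 FPKM without KCl and 0.801 to 1.28 with it, below the level tested.

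Of the FLRT genes, whose proteins bind latrophilins and Unc5 receptors, none passed without the block on the deposited scale. Flrt1, within Macrod1, was at 1.85 and 3.17 FPKM in Control, 3.63 and 3.71 in Control_KCl, 1.68 and 2.46 in Rem2 KO and 3.41 and 4.06 in Rem2 KO_KCl. All KCl libraries were higher, and its log2 values of 0.44 and 0.63 passed with the block (adjusted p = 0.0417 and 0.0112). Without the block Flrt1 passed with quantile normalization in both genotypes (0.037 and 0.0179) and with TMM-type scaling in Rem2 KO (0.0443). Macrod1, its host, had log2 values of -0.03 and -0.32 (adjusted p = 0.792 and 0.0147 with the block). Flrt2, the most abundant, was at 17.7 and 18.8, 18.5 and 17.7, 18.1 and 18.2, and 14.8 and 14.3 FPKM in the same groups. Only its Rem2 KO_KCl libraries stood apart, with a log2 value of -0.30 ± 0.09 (0.0737, 0.0143 with the block). Flrt3 had log2 values of -0.14 and -0.16 and did not pass.

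LINGO genes encode partners of the Nogo receptor complex and related proteins. Lingo1, the most abundant, was at 58.9 and 55.0 FPKM in Control, 62.9 and 64.6 in Control_KCl, 51.1 and 51.8 in Rem2 KO and 70.5 and 70.7 in Rem2 KO_KCl. It rose by 0.45 ± 0.08 SE on the log2 scale in Rem2 KO (adjusted p = 0.0188), and its value in Control was 0.16 ± 0.08 (0.235). Lingo3 was at 7.22 and 8.27, 2.98 and 3.33, 6.81 and 7.46, and 2.94 and 3.56 FPKM. It fell in both genotypes (-1.07 ± 0.15, 0.00887, and -0.94 ± 0.15, 0.0129), from 10.3% to 12.3% of the LINGO sum to 3.88% to 4.61%. Lingo2 had log2 values of 0.12 and 0.11 with KCl and did not pass.

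The Nogo receptors are anchored to the membrane by a lipid (GPI) and bind inhibitors of axon growth. Rtn4r, the receptor of Nogo, was at 23.7 and 23.2 FPKM in Control, 7.33 and 6.95 in Control_KCl, 19.8 and 20.5 in Rem2 KO and 11.0 and 8.42 in Rem2 KO_KCl. The KCl means were 0.304 and 0.484 times those without KCl, with log2 values of -1.59 ± 0.14 SE (adjusted p = 0.00376) and -0.99 ± 0.14 (0.01). Rtn4rl2, a receptor of myelin-associated glycoprotein, moved the other way, at 32.4 and 26.8, 51.0 and 44.7, 23.0 and 25.3, and 55.3 and 47.3 FPKM. It rose by 0.68 ± 0.14 (0.0261) and 1.05 ± 0.14 (0.0094).

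Rtn4rl1, which binds chondroitin sulfate proteoglycans, was at 8.48 and 8.89 FPKM in Control, 7.93 and 8.37 in Control_KCl, 6.14 and 6.61 in Rem2 KO and 8.84 and 8.26 in Rem2 KO_KCl. Its log2 value was 0.37 ± 0.11 in Rem2 KO (0.0721, but 0.0114 with the block, 0.0397 with quantile normalization and 0.0368 with TMM-type scaling) and -0.08 ± 0.11 in Control (0.698). The summed level of the Nogo receptor genes overlapped between the states (48.9 to 64.5 FPKM without KCl and 60.1 to 75.2 with it). Within the sum, Rtn4r went from 36.7% to 40.4% to 11.1% to 14.7%, and Rtn4rl2 from 45.5% to 50.2% to 73.6% to 77.0%.

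The LRRN genes are vertebrate relatives of Drosophila tartan and capricious. Lrrn2 was at 46.5 and 48.6 FPKM in Control, 19.5 and 21.5 in Control_KCl, 39.6 and 44.0 in Rem2 KO and 16.9 and 19.5 in Rem2 KO_KCl. It fell by 1.18 on the log2 scale in Control (SE 0.11, adjusted p = 0.00506) and by 1.16 in Rem2 KO (SE 0.11, 0.00531), and the ranges with and without KCl lay far apart. Lrrn3, the most abundant, was at 42.6 and 48.0, 55.5 and 77.7, 31.1 and 40.5, and 49.5 and 75.7 FPKM. All KCl libraries were higher, and its log2 values of 0.53 and 0.77 passed with the block (0.00726 and 0.00182) and not without it (0.233 and 0.106), except with TMM-type scaling (0.0439 and 0.0223). Immp2l, its host, had log2 values of 0.02 and 0.15 and did not pass. Lrrn1 had log2 values of 0.10 and -0.10 and did not pass.

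ELFN proteins bind metabotropic glutamate receptors across the synapse, and Elfn1 is best known from somatostatin interneurons. Elfn1 was at 8.44 and 8.93 FPKM in Control, 5.82 and 5.50 in Control_KCl, 8.02 and 10.1 in Rem2 KO and 5.43 and 6.53 in Rem2 KO_KCl. Elfn2 was at 12.6 and 14.7, 9.57 and 9.54, 12.9 and 14.5, and 7.67 and 9.26 FPKM, and both were lower in every KCl library. Elfn2 fell in Rem2 KO (-0.64 ± 0.14, adjusted p = 0.0315), and in Control passed with the block only (-0.47, 0.00526). Elfn1 passed with the block in both genotypes (-0.54, 0.00752, and -0.52, 0.00882), and without it in Rem2 KO with TMM-type scaling (0.0468).

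Of the LRIG genes, Lrig1, an inhibitor of ErbB receptors, was at 10.4 and 16.7 FPKM in Control, 11.1 and 19.8 in Control_KCl, 10.1 and 15.4 in Rem2 KO and 11.1 and 20.3 in Rem2 KO_KCl. The library numbered 2 was the higher in every group, and neither KCl contrast passed. Lrig2 was at 9.38 and 10.1, 12.4 and 11.3, 8.92 and 8.37, and 12.1 and 11.9 FPKM. It rose in Rem2 KO (0.43 ± 0.11, adjusted p = 0.0443), a call that did not pass with quantile normalization (0.0543), TMM-type scaling (0.0502) or no filter (0.0587), and in Control it passed with the block only (0.26, 0.0412). The 3 AMIGO genes, of which Amigo1 is an auxiliary subunit of Kv potassium channels, had log2 values between -0.26 and 0.01 and did not pass. Amigo1, the most abundant, was at 9.09 and 9.12, 8.17 and 9.59, 9.28 and 8.60, and 8.03 and 10.0 FPKM.

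Across the cultures other markers moved with KCl. The summed FPKM of 8 interneuron markers was 385 to 508 without KCl and 1355 to 1763 with it, led by the activity-regulated gene Sst. That of 6 excitatory neuron markers was 333 to 422 and then 519 to 674. That of the 6 neuron markers was 1617 to 1921 and then 1387 to 1537. The interneuron marker Lhx6 passed as lower in both genotypes with the block. The excitatory markers Slc17a7 and Emx1 did not pass with or without it. Tubb3, the largest part of the neuron sum, was at 1126 and 1172 FPKM in Control and 647 and 728 in Control_KCl. Snap25 rose in both genotypes, at 112 and 106 FPKM in Control and 177 and 199 in Control_KCl. Map2, Rbfox3 and Syt1 did not pass. Dcx passed as lower in Rem2 KO with the block only, at 210 and 190 FPKM in Rem2 KO and 174 and 152 in Rem2 KO_KCl. The part of these markers in the changes of the adhesion genes was not tested. Of 8 known depolarisation-responsive genes used as a check of the labels, 6 rose in both genotypes, among them Fos, Npas4 and Bdnf. Arc passed as higher in both genotypes with the block only. Egr1 did not pass with or without the block, at 25.1 and 19.3 FPKM in Control and 15.7 and 21.0 in Control_KCl.

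The known binding partners of these proteins were counted next. Of 39 tested partner genes, 3 rose in Control (Fgfr2, Omg and Dlg1) and 3 fell (Unc5a, Tnfrsf19 and Met), and in Rem2 KO 1 rose (Fgfr2) and 3 fell (Adgrl3, Unc5a and Tnfrsf19). The shares of all genes given above were 5.18% higher and 12.2% lower in Control and 5.73% and 10.3% in Rem2 KO. Fgfr2, a receptor that binds FLRT proteins, was at 12.3 and 13.6 FPKM in Control and 23.8 and 23.8 in Control_KCl (log2 0.83 ± 0.10, adjusted p = 0.00725). Unc5a, of the Unc5 family of FLRT partners, was at 12.5 and 12.4 and then 7.76 and 8.15 FPKM (-0.59 ± 0.10, 0.0135). Tnfrsf19, a co-receptor in the Nogo receptor complex, was at 16.3 and 14.8 and then 10.5 and 9.42 FPKM (-0.60 ± 0.15, 0.0429). Nrxn3, encoding a neurexin, and Ptprs and Ptprd, encoding receptor phosphatases, did not pass, with log2 values between -0.13 and 0.17 over both genotypes. With the block 9 partners rose and 13 fell in Control and 8 rose and 16 fell in Rem2 KO, beside 14.4% and 34.3% of all genes and 16.1% and 31.4%.

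Of 19 tested genes for other leucine-rich repeat proteins of neurons, 2 rose in Control (Lgi1 and Ntrk2) and 2 fell (Lrrc24 and Lrrc8d), with a median of -0.20. In Rem2 KO, Ntrk2 rose and the same 2 fell, and the shares of all genes are those given for the partners. With the block 5 rose and 6 fell in Control, and 6 rose and 6 fell in Rem2 KO. Ntrk2, the receptor of BDNF, was at 104 and 119 FPKM in Control and 184 and 209 in Control_KCl (0.81 ± 0.18, adjusted p = 0.0313). Lrrc24 was at 11.3 and 10.8 and then 4.36 and 4.65 FPKM (-1.13 ± 0.13, 0.0069).

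Rem2 KO was compared with Control without KCl, with KCl and averaged over both. None of the 36 genes passed in any of these contrasts or in the interaction with limma, where 0.0229%, 0.0458%, 0.00764% and 0.00764% of all genes did. At an unadjusted p under 0.05 there were 6, 6, 9 and 3 of the 36 genes, and 181, 195, 328 and 68 of all 13089. With the block none of the 36 passed without KCl, with KCl or in the interaction, where 0.0306%, 0.0764% and 0.0688% of all genes did, and 14, 13 and 6 of the 36 had an unadjusted p under 0.05, beside 1003, 984 and 452 of all 13089. In the averaged contrast with the block 1 of the 36 passed, beside 0.428% of all genes, and 16 had an unadjusted p under 0.05, beside 1475. That gene was Lingo2, at 3.71 and 3.93 FPKM in Control, 4.05 and 4.41 in Control_KCl, 2.18 and 2.65 in Rem2 KO and 2.42 and 2.96 in Rem2 KO_KCl. All 4 Rem2 KO libraries lay below all 4 Control libraries, with a log2 difference of -0.50 ± 0.07 SE (adjusted p = 0.0497 with the block, 0.983 without). The call was lost when any 1 library was left out.

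The values that came next did not pass, with or without the block. They were Lrrc4c (-0.44, adjusted p = 0.204 with the block), Lrrtm4 (-0.41, 0.262), Lrrtm3 (-0.40, 0.128), Lrfn5 (-0.33, 0.0702) and Lrrn1 (0.33, 0.157). Rem2 KO was lower than Control in all 4 same-numbered pairs in 14 of the 36 genes, beside 11.3% of all genes. These were all 4 Lrrtm genes, Lrrc4, Lrrc4c, Lrfn5, Slitrk4, Slitrk5, Flrt3, Lingo2, Lrrn2, Lrrn3 and Amigo2. Quantile normalization and TMM-type scaling also gave 14, with Slitrk1 in place of Lrrc4. It was higher in all 4 pairs in 2 genes (Lrfn2 and Lrrn1), beside 8.94% of all genes, and with either scaling Lrrc4b stood in place of Lrfn2. The pairs with and without KCl share a genotype, so the 4 pairs do not amount to a test of single genes.

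**Figure D5:**
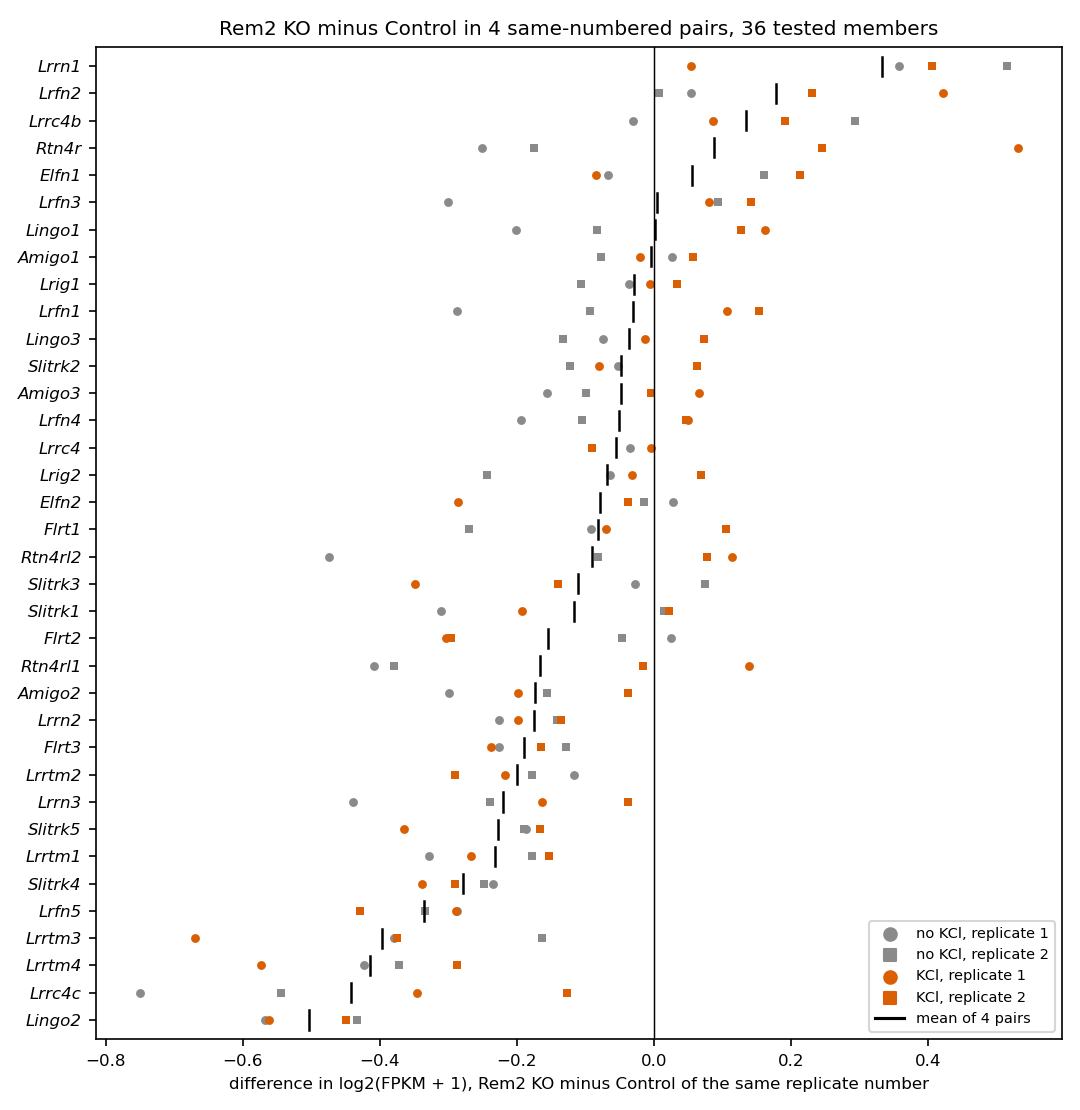
Difference in log2(FPKM + 1), Rem2 KO minus Control of the same replicate number, for the 36 tested genes (rows, ordered by the mean); circles are replicate 1, squares replicate 2, grey without and orange with KCl, and the short black line is the mean of the 4. Lingo2 has the lowest mean (-0.50) and Lrrn1 the highest (0.33).

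Cell type markers were also compared between the genotypes. In the averaged contrast the median log2 difference was -0.29 for endothelial and mural markers, -0.23 for fibroblast and -0.19 for microglial markers, and 0.13 for astrocyte or radial glial and 0.18 for oligodendrocyte lineage markers. It was -0.08 for the neuron markers, 0.05 for interneuron and -0.03 for excitatory neuron markers. For the 36 adhesion genes it was -0.09 and for all genes 0.002, and no marker passed without the block. With it the neuron marker Syt1 (-0.33, adjusted p = 0.0497) and the fibroblast marker Dcn (-0.96, 0.0497) were lower. Of the partner genes, Gpc5, encoding a glypican, was lower with the block in all 3 genotype contrasts (averaged -1.09, adjusted p = 0.0039, or 0.983 without the block), at 5.16 to 8.12 FPKM in the 4 Control libraries and 1.73 to 3.43 in the 4 Rem2 KO libraries. The summed neuron markers were 1813 and 1921 FPKM in Control and 1617 and 1740 in Rem2 KO, and 1387 and 1537 in Control_KCl and 1420 and 1393 in Rem2 KO_KCl. Tubb3 was the largest part of each of these sums. The summed endothelial markers were 31.7 and 15.7 FPKM in Control and 22.4 and 14.0 in Rem2 KO, so they also differed between the libraries numbered 1 and 2. Their part in the differences above was not tested.

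The transcript split also touched the genotype values. The second Lrfn5 transcript was listed at 0 in both Rem2 KO libraries and at 2.28 to 3.99 FPKM in the other 6, and a further Lrrc4c transcript at 1.79 FPKM in Rem2 KO replicate 1 alone. The larger Lrfn5 transcript was at 19.8 and 22.2 FPKM in Control and 17.9 and 19.4 in Rem2 KO.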

How the data were processed

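RNA from 8 cultures was measured by RNA sequencing after TruSeq library preparation from 500 ng of total RNA, per the labels' protocols. Reads were processed with TopHat and Cufflinks on mm10, per the submitters' processing notes, with versions not given in the sources used here. The authors deposited FPKM per RefSeq transcript, per the file headers. FPKM were summed per gene. Genes with an accession listed more than once, or with an empty cell, were left out (302 genes). Of the remaining 23830 genes, 13089 with at least 1 FPKM in at least 2 libraries were tested.

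The groups came from the titles. The test was limma 3.58.1 in R 4.3.3 on log2(FPKM + 1) with a variance trend and 4 group means (4 residual degrees of freedom), with Benjamini-Hochberg adjustment over all 13089 genes and a threshold of 0.05. Counts of reads were not used here. Fold changes in the text are ratios of group means of FPKM where written as n-fold, and otherwise log2 values. With 2 libraries a group, standard errors come from the spread pooled over all 8, and the procedure was tested on simulated data.

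Same-numbered libraries deviated together from their group means, with correlations across genes of 0.708 to 0.783 over the 6 pairs of groups, so the numbers were taken to pair the libraries. The pairing comes from the data and not from a label. The fit with the replicate number as a block (3 residual degrees of freedom) is given beside a result where it changed the call.

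The genes, lists and tests were chosen with earlier results of these data known. Values per library are given for each gene called in any contrast, with or without the block, and for the most abundant gene of each subfamily. Of the partner and other leucine-rich repeat genes, those called without the block are named. Other genes were named after their values were seen. Alternatives were pseudocount 0.1, no filter, a minimum of 5 FPKM, quantile normalization, TMM-type scaling, no variance trend, the block, and leaving out each library.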

Additional observations from a re-analysis of the deposited data

Results flagged for a closer look

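In 8 of the 36 genes, beside 10.2% of all 13089, the same-numbered pairs moved one way in one state and the opposite way in the other, which drew attention to the difference between the effects. The difference in KCl effect between genotypes (Rem2 KO minus Control, log2 scale) was then read from the interaction, and none of the 8 passed it (limma adjusted p = 1 in each, or 0.999 with the block). With KCl, both Control pairs went up and both Rem2 KO pairs went down for Lrrtm3 (difference -0.25) and Lrrn1 (-0.21), and the reverse held for Lrfn1 (0.32) and Rtn4rl1 (0.46). Rem2 KO lay below Control in both pairs without KCl and above it in both pairs with KCl for Rtn4r (0.60), Rtn4rl2 (0.37), Lrfn1 (0.32), Lingo1 (0.29) and Lrfn4 (0.20). The unadjusted interaction p was 0.0208 for Rtn4r, 0.0259 for Rtn4rl1 and 0.0471 for Lingo1. For Lrfn1, the second transcript that was listed above 0 in Rem2 KO_KCl alone enters this difference.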

How the results depend on the processing

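Of 41 single-gene results, none changed sign in 694 checks over the alternatives. The 41 were those that passed in these data with or without the block. The block alone, the variance trend and the filters leave a log2 value unchanged, as does leaving out a library outside the contrast without the block. Many of the checks could therefore not change a sign. The genes called with KCl in Control, 11 in the reported fit, numbered 19 with the replicate block, 23 with the block and quantile normalization, and 25 with the block and TMM-type scaling. Leaving out 1 library gave 2 to 11 without the block and 12 to 19 with it (17 without either Rem2 KO library). With KCl in Rem2 KO, 14 became 3 to 11 when 1 library was left out and 21 with the block. For genotype averaged over KCl states the 0 became 1 with the block, alone, with quantile normalization or with TMM-type scaling, and 0 when any library was left out of the blocked fit. The blocked combinations were chosen after seeing the data. Where leaving out a library leaves a lone sample, that sample is assumed to vary like the other groups. The cause of these shifts was not tested, except that fewer samples leave fewer degrees of freedom. Among the 36 adhesion genes the block changed no other call than those named in the results. Pseudocount 0.1 and no variance trend changed no single-gene call. The main limits are the 2 libraries per group, FPKM without read counts, the split of reads between transcripts and overlapping genes, and a replicate number that coincides with depth.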
